A study of Saccharomyces cerevisiae with 12 samples.

Results

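The genes described are the nuclear genes for mitochondrial ribosomal proteins of budding yeast, Saccharomyces cerevisiae, whose names are MRPL, MRPS or RSM with a number, plus 11 genes named MRP. These are MRP1, MRP2, MRP4, MRP7, MRP10, MRP13, MRP17, MRP20, MRP21, MRP49 and MRP51. The name rule found 65 genes among the 6120 in the table. They comprise 37 genes of the large subunit and 28 of the small subunit. Of the large-subunit proteins 23 have a bacterial counterpart and 14 do not, and of the small-subunit proteins 16 have one, 10 do not and 2, MRP51 and RSM22, were not classed. All 65 genes passed the filter on low values, a mean of at least 10 over the libraries. None of them was at 0 in any library.

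Polyadenylated RNA of strain pJD47, for which the labels give no genotype, was sequenced in 4 groups with n = 3 libraries each, called biological replicates in the labels. Quiescent cells (Q) had been moved from growing glucose cultures into water with 10 mM deuterated acetate and held there for 7 days. Cells collected 30 min (E30) and 240 min (E240) after resuspension in liquid medium had been through the same acetate treatment, and the labels do not name that medium. Log-phase cells (LOG) are described as growing logarithmically, and the labels do not say when or from which culture they were taken. Whether the replicates were separate cultures throughout is not stated, so the p-values measure the spread between these libraries.

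The mitochondrial ribosome makes the few membrane proteins of the respiratory chain and ATP synthase that mitochondrial DNA encodes. Its RNAs and 1 of its small-subunit proteins, Var1, are encoded in mitochondrial DNA, whereas the other proteins are made in the cytosol from nuclear genes and imported. The RNA-binding protein Puf3 binds a short element after the stop codon of many mRNAs for mitochondrial proteins, and in glucose it promotes their decay.

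The Puf3 element was the sequence feature these genes shared. The letters TGTANATA (N being any base) were found on the gene strand in the first 200 bases after the stop codon of 64 of the 65 genes (98.5%), against 844 of 6002 nuclear protein-coding genes of the R64 reference (14.1%). RSM22 was the exception. On the opposite strand of the same windows 12 of 65 (18.5%) held it, against 13.2% of all genes. In a window of 100 bases the share was 90.8% against 10.1%, and in one of 300 bases it was 98.5% against 16.2%. The motif began a median of 51 bases after the stop codon (range 8 to 139), and 13 genes held more than 1. The second base before the motif was C in 45 of 64 genes (70.3%), against 29.1% of all genes with the motif. The N was A in 32 of the 64, against 28.6% of all genes with the motif. These shares were counted on the genome sequence and say nothing of binding.

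The sites of the 12 genes whose levels the results turn on most are printed below, each with up to 10 bases of genome on either side. Capitals mark the motif. Where a gene held several, the one nearest the stop codon is shown.
RSM7: taaacttgccTGTACATAaacacattta
RSM10: atttcgtactTGTAAATAaaataggtga
MRPS12: tacaacctttTGTAAATAgcaatgacca
MRPL28: tgtctcctgcTGTAAATAactgatgatc
MRPL32: aacttaagccTGTATATAgaaacttaat
MRPL15: aaaatttatcTGTAAATAgtgatcgaaa
MRPL25: tgtctaatcaTGTAAATAattttgtgat
MRPL3: tttgccatttTGTAGATAgagaactcct
MRPS9: tcgttattccTGTAAATAaagttatatg
MRPS28: tagaaaagctTGTAAATAagaaaccgtc
MRPL13: tttaatatccTGTACATAtatatactct
MRPL20: ataacaatcgTGTAAATActactctata
The sites are chrX:638193-638220 for RSM7, chrIV:540463-540490 for RSM10, chrXIV:694270-694297 for MRPS12, chrIV:1386538-1386565 for MRPL28, chrIII:119207-119234 for MRPL32, chrXII:760292-760319 for MRPL15, chrVII:637009-637036 for MRPL25, chrXIII:323055-323082 for MRPL3, chrII:536225-536252 for MRPS9, chrIV:1147198-1147225 for MRPS28, chrXI:450359-450386 for MRPL13 and chrXI:599050-599077 for MRPL20, in R64 (sacCer3) coordinates. RSM7, MRPL25, MRPS12, MRPL13 and MRPL20 lie on the minus strand, and their sites are written along it. With the motif in 64 of the 65 genes, its presence cannot be compared between genes with falling and genes with rising levels.

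**Figure D1:**
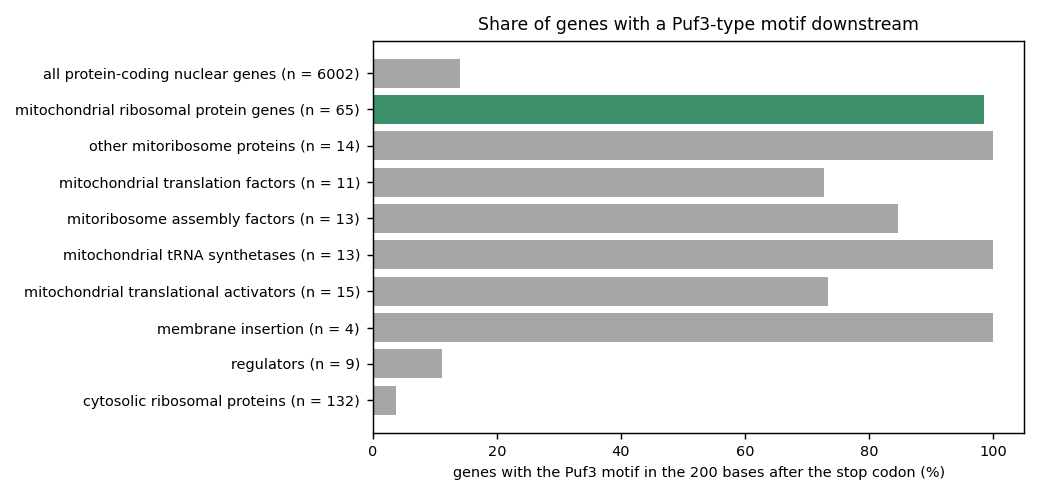
Share of genes in each list with the Puf3 motif in the 200 bases after the stop codon, in percent, with the number of genes in brackets. The mitochondrial ribosomal protein genes reach 98.5%, all nuclear protein-coding genes 14.1% and cytosolic ribosomal protein genes 3.79%.

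Other genes of mitochondrial translation held the motif too. All 14 other mitochondrial ribosome proteins, whose names follow no MRP or RSM pattern, held it, as did 13 of 13 mitochondrial tRNA synthetases, 8 of 11 translation factors, 11 of 13 ribosome assembly factors and 11 of 15 mRNA-specific translational activators. Of 132 cytosolic ribosomal protein genes, 5 did (3.79%).

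Values are normalised read counts, and changes are log2 fold changes of value + 1 with their standard error (SE). A gene was called, and is said to have risen or fallen, where limma's adjusted p was under 0.05 over the 5871 genes tested. Quiescent libraries held between 1195233 and 5220494 recovered reads, the E30 libraries between 7943459 and 11866340, the E240 libraries between 11572190 and 12428294 and the LOG libraries between 13480102 and 15100323. The lowest count of a member in any library was 16 reads. It came from quiescent replicate 1, the shallowest library, with 6.97 units to a read. In that library the median member had 53 reads, against 290.0 and 247 in the other quiescent libraries. With bulk RNA, fewer cells and less RNA per cell cannot be told apart.

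Some libraries stood apart before any comparison. The summed level of 6 starvation markers was 4036 in log-phase replicate 1 but 49459 and 29392 in replicates 2 and 3. HSP12, a small heat shock protein gene of starved cells, stood at 1297, 38799.9 and 22735 in these libraries, and at 23778 to 29459 in quiescent cells. It was the largest part of the sum in log-phase replicates 2 and 3. HSP26, SPG1, SPG4 and SPG5 were also higher in those replicates than in replicate 1, but below every quiescent library. SNZ1 went the other way, at 1005, 856 and 485 in log-phase replicates 1, 2 and 3, also below every quiescent library. Within groups, the members' log2 values had a median SD of 0.22 (Q), 0.15 (E30), 0.24 (E240) and 0.50 (LOG). Named changes from quiescence to log phase are therefore also given with log-phase replicate 1 alone, an alternative chosen after the data were seen. That fit holds a single log-phase library, so its p-values and calls hold no spread between log-phase libraries. It also sets replicate 1 against all quiescent libraries, although replicate 1 differed from the others in every group.

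The summed level of the set stayed within a narrow range through exit. Summed over the 65 genes, the values lay between 38885 and 41783 in quiescent libraries, between 38779 and 38975 at 30 min, between 36758 and 40490.2 at 240 min and between 43055 and 52828 in log phase. As a share of reads this was 0.467 to 0.540%, 0.583 to 0.590%, 0.422 to 0.442% and 0.429 to 0.468%. The 132 cytosolic ribosomal protein genes, measured the same way, took 4.21 to 5.53% of reads in quiescent cells and 5.505 to 6.07% at 30 min. They then took 16.7 to 20.5% in E240 and 17.4 to 17.9% in LOG cells. For the mitochondrial set the share of reads was lower at 240 min than at 30 min without overlap, while the normalised sums overlapped.

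The balance of the subunits did shift. The ratio of large-subunit to small-subunit summed values, which is not per length, was 0.741 to 0.796 in quiescent cells, 1.02 to 1.15 in E30, 1.05 to 1.13 in E240 and 1.05 to 1.15 in LOG cells, so that the quiescent libraries did not overlap with any other. RSM7, RSM10 and MRPS12 made up 33.3 to 41.8% of the small-subunit sum in quiescent cells, 15.3 to 17.1% in E30, 14.0 to 15.5% in E240 and 14.95 to 26.9% in LOG cells. Without these genes and MRPL28, chosen after their values were seen, the ratio was 1.10 to 1.28 in quiescent cells and 1.20 to 1.44 in the other groups.

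**Figure D2:**
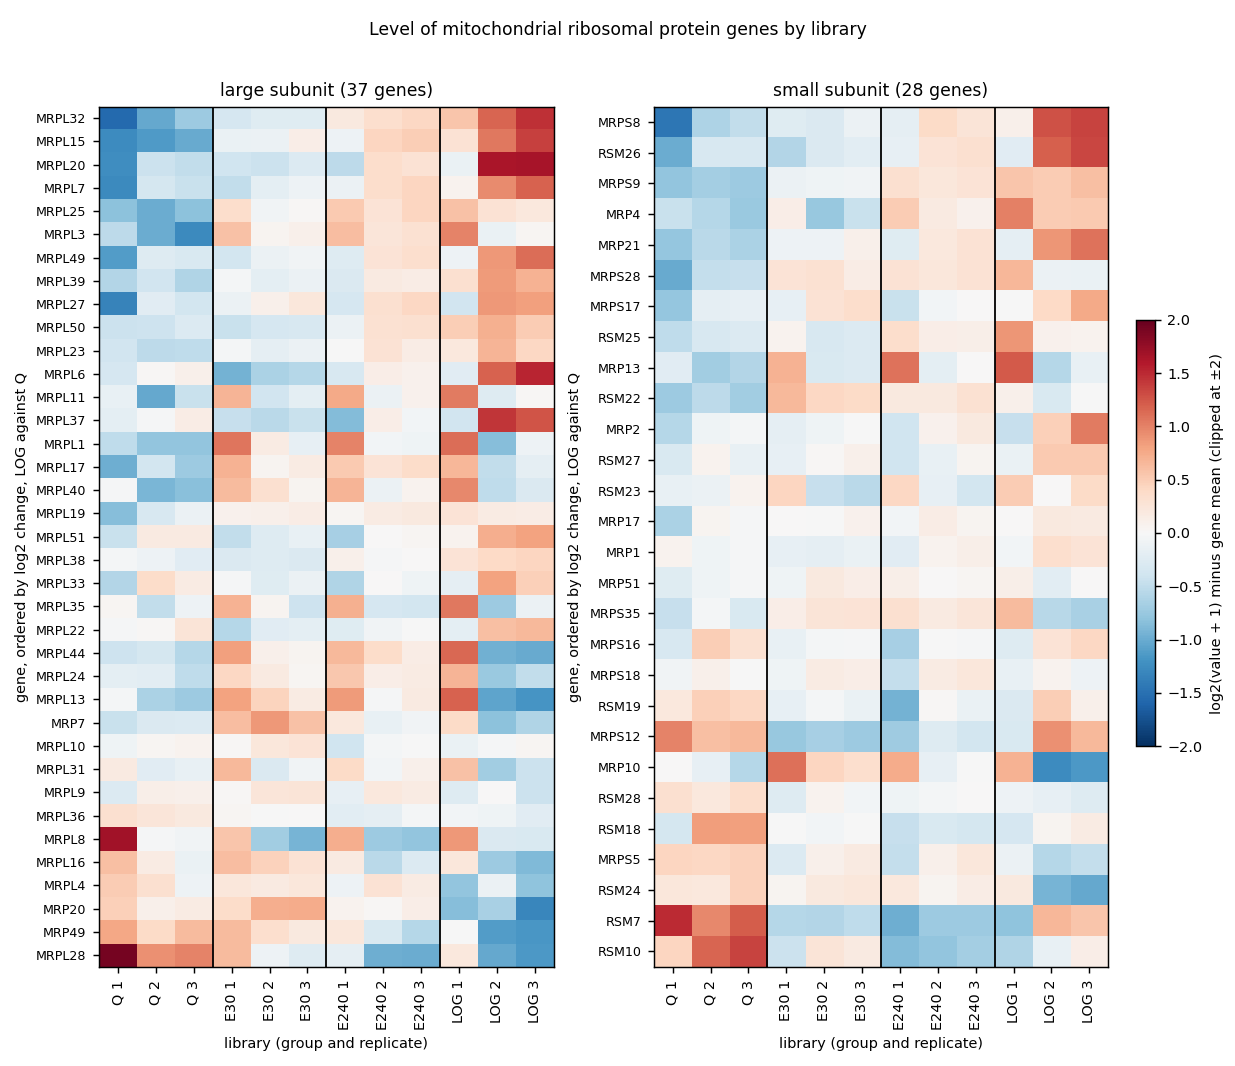
Level of each gene in each library, as log2(value + 1) minus the gene's mean over the 12 libraries, with large-subunit genes on the left and small-subunit genes on the right, ordered by the change from Q to LOG. The bottom rows (RSM7, RSM10, MRPL28) are high in Q, the top rows (MRPL32, MRPL15, MRPS8) are low in Q, and LOG replicates 2 and 3 differ from LOG replicate 1 in many rows.

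Per kb of coding length, the highest mean levels over the 12 libraries were those of MRPS12, MRPL51 and MRPS16, at 4714, 3882 and 3033 units per kb. The order changed with the group. MRPS12 was first in quiescent cells (7149 per kb, ahead of RSM7 at 4407) and in log phase (6009), whereas MRPL51 was first at 30 min (3023, with MRPS12 at 2574) and at 240 min (3289, with MRPS12 at 3125). MRPL51 (mL43, a large-subunit protein without a bacterial counterpart) stood at 1151, 1776 and 1776 in quiescent cells, 1119.6, 1306 and 1410.0 at 30 min, 985, 1579.8 and 1609.7 at 240 min, and 1646, 2596 and 2752 in log phase. It was lowest in replicate 1 of each group, and part of it overlaps YPR099C on the opposite strand. MRPS16 (bS16m, of the small-subunit body) stood at 872, 1531 and 1335 in quiescent cells, 973, 1056 and 1065 at 30 min, 684, 1084 and 1064 at 240 min, and 904, 1308 and 1445 in log phase, with quiescent cells overlapping every other group. The lowest 12-library means per kb were those of MRPL4, MRP13 and MRPL35, at 133, 232 and 239 units per kb. The level of MRP13 (mS44) was 181, 131 and 141 in quiescent cells, 347, 173 and 176 at 30 min, 455, 186 and 215 at 240 min, and 503, 143 and 192 in log phase. For MRPL35 (mL38) it was 251, 173 and 228 in quiescent cells, 399.9, 254 and 185 at 30 min, 404, 194 and 190.2 at 240 min, and 513, 148 and 227 in log phase. For both, replicate 1 was the highest library in each group, and neither was called in any comparison. From quiescence to log phase MRP13 was called higher by limma with the replicate block (adjusted p = 0.0225). With log-phase replicate 1 alone the change was log2 1.74. The spread between genes, as the SD of log2 level per kb, was 1.24 to 1.35 in quiescent cells, 0.846 to 1.06 in E30, 0.759 to 1.07 in E240 and 0.898 to 1.54 in LOG cells. This spread was lowest in replicate 1 of every group.

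The first comparison asked what changed in the initial 30 min of exit. Of the 65 genes 10 rose and 4 fell (15.4% and 6.15%), where 20.6% and 23.7% of all genes tested were called higher and lower. The rises were of MRPL3, RSM22, MRPL15, MRP7, MRPL17, MRPL25, MRPS28, MRPL32, MRPS9 and MRPL19, and the falls of RSM7, MRPS12, MRPL28 and RSM10. In the large subunit 7 of 37 rose and 1 fell, with a median log2 change of 0.35. In the small subunit 3 of 28 rose and 3 fell, with a median of 0.16. The median was 0.22 over the members and -0.07 over all genes tested. With the replicate number as a block 19 members were called higher and 7 lower, against 1550 and 1799 of all genes tested.

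The 2 largest falls by 30 min were in genes for small-subunit proteins. RSM7 (uS7m, YJR113C, chrX:638232-638975), whose bacterial counterpart starts assembly of the small-subunit head, stood at 3912, 2704 and 3219 in quiescent cells, 934, 922 and 977 at 30 min, 706, 841 and 839 at 240 min, and 794, 2189 and 2041 in log phase. Every quiescent library lay above every library of the other groups, while log-phase replicates 2 and 3 came nearer to it than replicate 1. From quiescence to 30 min RSM7 fell (log2 -1.78 ± 0.32, adjusted p = 0.000967).

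MRPS12 (uS12m, YNR036C, chrXIV:694361-694822), the counterpart of a bacterial protein of the decoding centre, stood at 3884, 2971 and 3052 in quiescent cells, 1158, 1233 and 1177 at 30 min, 1195, 1627 and 1509 at 240 min, and 1584, 3686 and 3059 in log phase. Quiescent cells were above the 30 min and 240 min cells without overlap, and log-phase replicates 2 and 3 reached the quiescent range while replicate 1 did not. It fell by 30 min (log2 -1.46 ± 0.28, adjusted p = 0.00133), and the change from quiescence to log phase did not pass the test (log2 -0.33 ± 0.28, adjusted p = 0.335). With log-phase replicate 1 alone that change was called lower (log2 -1.05, adjusted p = 0.00412). RSM19 (uS19m) lies 229 bp upstream of MRPS12 on the same strand.

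RSM10 (uS10m, YDR041W, chrIV:539803-540414), another protein of the small-subunit head, stood at 1248, 2092 and 2368 in quiescent cells, 689, 1113 and 1059 at 30 min, 508, 541 and 579.6 at 240 min, and 614, 844 and 1021 in log phase. All 30 min libraries were below all quiescent ones, and the 240 min libraries were lower still (log2 -0.98 ± 0.28, adjusted p = 0.0137 for 30 min against quiescence). MRPL28 (mL40, YDR462W, chrIV:1386073-1386516), a large-subunit protein without a bacterial counterpart, stood at 1074, 535 and 567 in quiescent cells, 441, 263 and 238 at 30 min, 249.98, 143 and 142 at 240 min, and 329, 139 and 128 in log phase. Quiescent cells were again above the other groups without overlap, and replicate 1 was the highest library in every group. It fell by 30 min (log2 -1.18 ± 0.41, adjusted p = 0.0325). The 30 min call of RSM10 was lost without 30 min replicate 1, quiescent replicate 2 or quiescent replicate 3 (log2 -0.88 to -0.76, adjusted p = 0.0511 to 0.0643), and that of MRPL28 without 30 min replicate 2, 30 min replicate 3 or quiescent replicate 1 (log2 -1.08 to -0.86, adjusted p = 0.0942 to 0.131). With equal library totals neither passed (log2 -0.72, adjusted p = 0.0536 for RSM10 and log2 -0.93, adjusted p = 0.0941 for MRPL28).

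**Figure D3:**
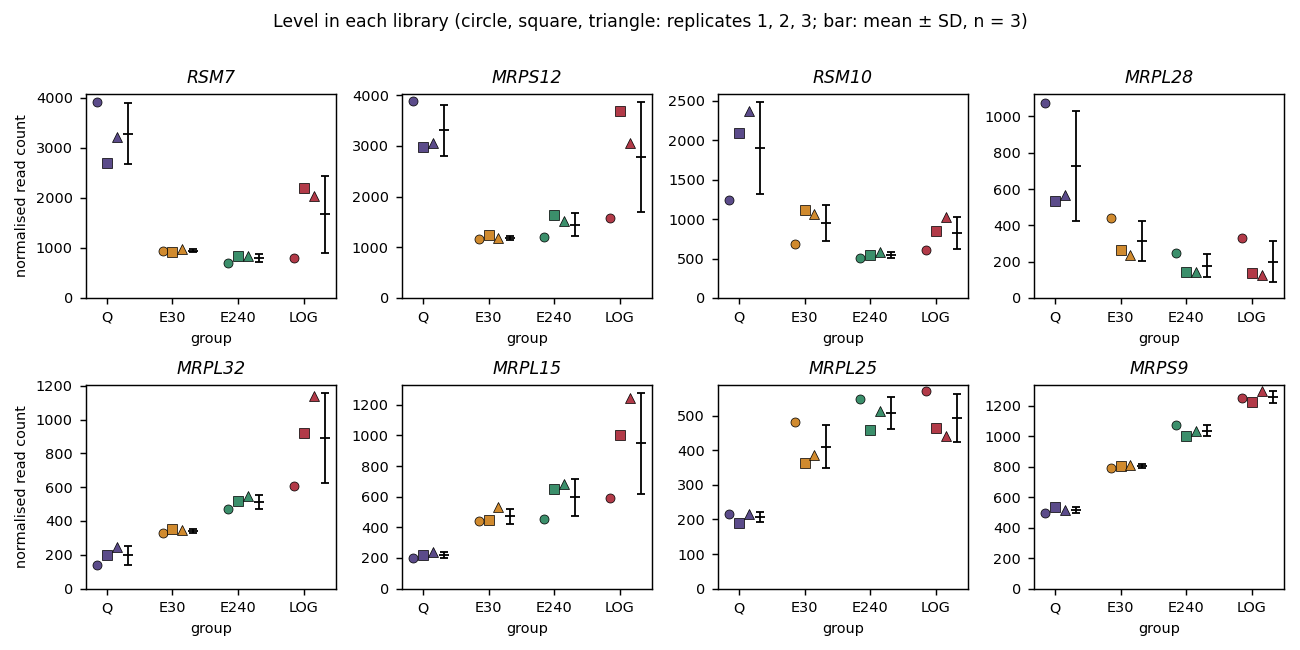
Normalised read count of 8 genes in each library, by group, with replicates 1, 2 and 3 as circles, squares and triangles and the mean ± SD (n = 3) as bars. Each axis starts at 0. In the top row the quiescent libraries lie above those at 30 and 240 min, and in the bottom row they lie below every library of the other groups.

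Among the risers, RSM22 (YKL155C, chrXI:159456-161342), a methyltransferase-like protein of the small subunit and the gene without the downstream motif, stood at 272, 315 and 277 in quiescent cells, 709.7, 605 and 589.7 at 30 min, 519, 519 and 556 at 240 min, and 482, 367 and 450.4 in log phase. The quiescent libraries were the lowest in the series and the 30 min libraries the highest (log2 1.14 ± 0.17, adjusted p = 0.000339). MRPL3 (mL44), a large-subunit protein related to RNase III, stood at 272, 195 and 162 in quiescent cells, 591, 407 and 419 at 30 min, 600.2, 464 and 481 at 240 min, and 780.0, 355 and 400.2 in log phase. Its quiescent libraries lay below all others, and replicate 1 was the highest library in every group (log2 1.18 ± 0.30, adjusted p = 0.00761). MRPL15 (mL57), also related to RNase III, stood at 202, 220.1 and 242 in quiescent cells, 440.3, 446 and 529 at 30 min, 453, 651 and 679.5 at 240 min, and 593, 1005 and 1246 in log phase. No library of another group reached the quiescent range (log2 1.09 ± 0.26, adjusted p = 0.00548).

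MRP7 (bL27m), whose bacterial counterpart reaches the peptidyl transferase centre, stood at 955, 1064 and 1074 in quiescent cells, 1987, 2371 and 1958 at 30 min, 1507, 1175 and 1237 at 240 min, and 1695, 738 and 857 in log phase. It was highest at 30 min, without overlap with quiescent cells, and log-phase replicates 2 and 3 were below the quiescent libraries (log2 1.03 ± 0.27, adjusted p = 0.00866 for 30 min). MRPL25 (mL59) stood at 216, 191 and 215 in quiescent cells, 483, 364 and 386 at 30 min, 550.1, 459 and 515 at 240 min, and 572, 465 and 441 in log phase, with the quiescent libraries below all others (log2 0.98 ± 0.19, adjusted p = 0.0013). The level of MRPS28 (uS15m) was 286, 417 and 421 in quiescent cells, 698, 710.3 and 643 at 30 min, 704, 678 and 706 at 240 min, and 920.0, 532 and 526 in log phase, again with no overlap between quiescent cells and the other groups (log2 0.89 ± 0.24, adjusted p = 0.00912).

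MRPL17 (mL46) stood at 223, 339.7 and 264 in quiescent cells, 713, 455 and 494 at 30 min, 632, 534 and 565 at 240 min, and 698, 314 and 388 in log phase. Quiescent cells did not overlap with the 30 min or 240 min cells but did with log phase (log2 1.00 ± 0.29, adjusted p = 0.0149). MRPL32 (bL32m, YCR003W, chrIII:118620-119171), which in yeast is matured by the m-AAA protease before it enters the ribosome, stood at 139, 201 and 249 in quiescent cells, 327, 349.6 and 348 at 30 min, 471, 518 and 549 at 240 min, and 607, 924 and 1138 in log phase. Every group lay above the one before it (log2 0.83 ± 0.26, adjusted p = 0.0195 for 30 min against quiescence). The 30 min call was lost for MRPL17 without 30 min replicate 1 or quiescent replicate 1 (log2 0.80 to 0.86, adjusted p = 0.0557 to 0.0639) and for MRPL32 without 30 min replicate 2, 30 min replicate 3 or quiescent replicate 1 (log2 0.61 to 0.82, adjusted p = 0.0554 to 0.0764).

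MRPS9 (uS9m), whose bacterial counterpart touches the tRNA in the peptidyl site, stood at 495, 538 and 518 in quiescent cells, 791, 807 and 814 at 30 min, 1076, 1004 and 1032 at 240 min, and 1255, 1226 and 1300.2 in log phase. The libraries of each group lay above those of the group before, with an SD of 11.7 to 37.6 within groups (log2 0.64 ± 0.15, adjusted p = 0.00422 for 30 min). The smallest called rise was that of MRPL19 (uL11m), from 230.0 ± 57.1 to 327 ± 7.26 (SD, n = 3; log2 0.54 ± 0.20, adjusted p = 0.0459), named after its values were seen. That gene overlaps YNL184C on the same strand, and its call was lost without 5 of the 6 libraries compared, each left out in turn. It was also lost with TMM scaling, with edgeR and in a fit of only the groups compared. The calls of RSM7, MRPS12, MRP7, MRPL3, MRPL15, MRPL25, MRPS9, MRPS28 and RSM22 were kept under every alternative run for this comparison.

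**Figure D4:**
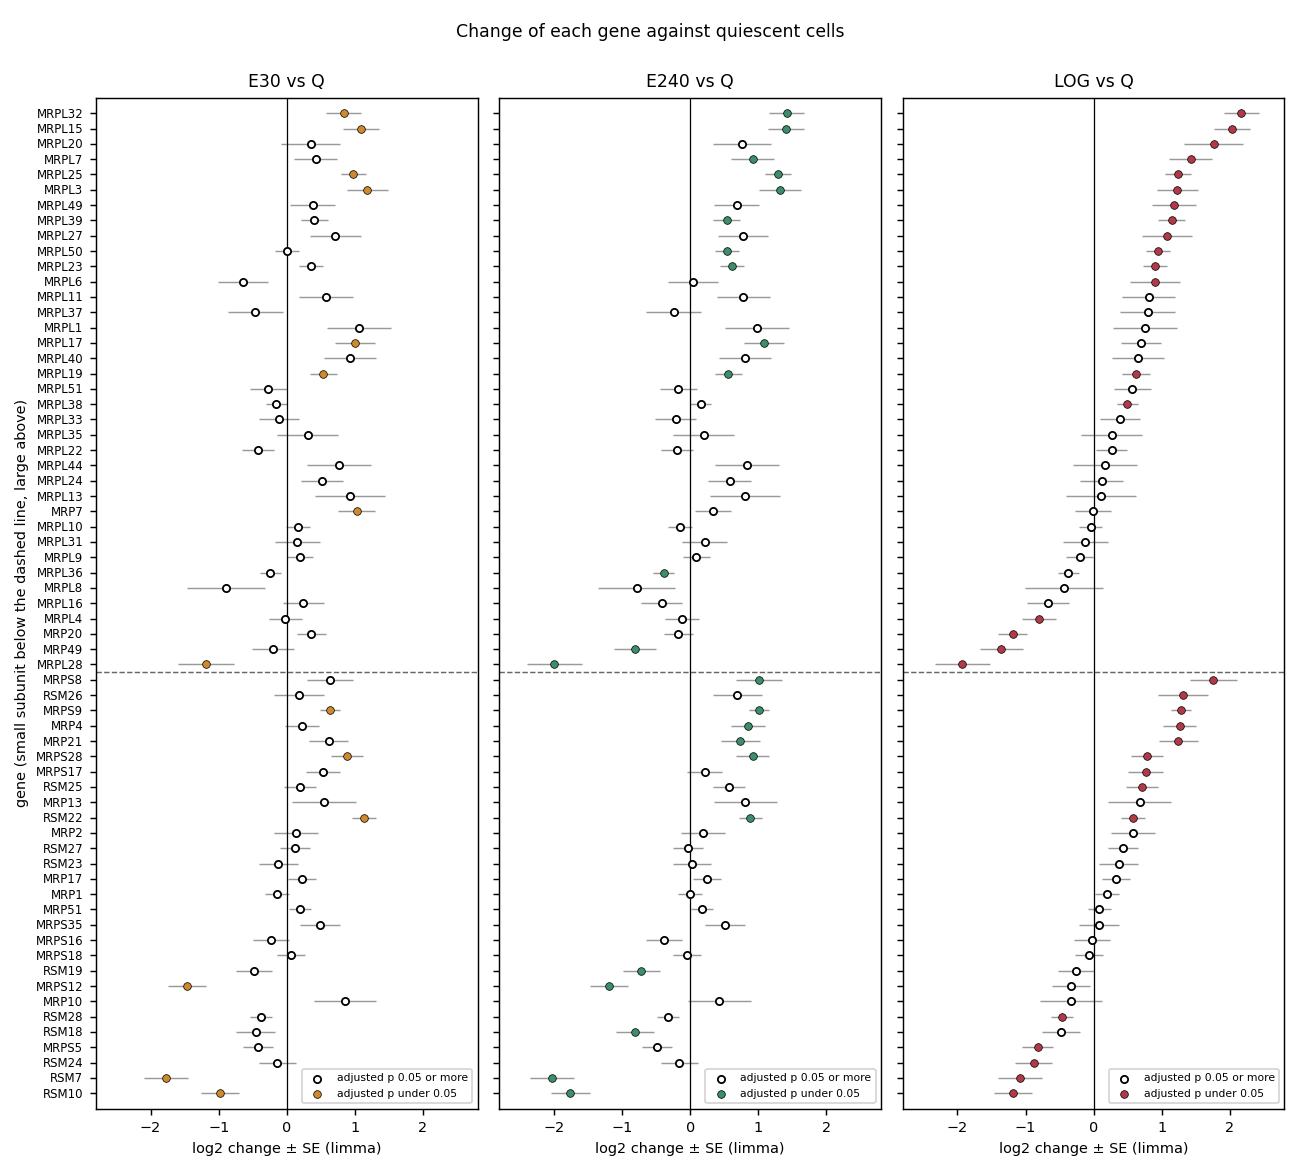
Log2 change ± SE of each gene in E30, E240 and LOG cells against quiescent cells, with filled points where limma's adjusted p was under 0.05 (10 higher and 4 lower, 16 and 8, 23 and 9). The 3 comparisons share the quiescent libraries. MRPL28, RSM7 and RSM10 lie furthest to the left in the middle panel.

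From 30 to 240 min few members passed the test. MRPL50 alone was called, as higher, and none was called lower (1.54% and 0% of the members, where 13.3% and 14.0% of all genes tested were called higher and lower). At an unadjusted p under 0.05 limma gave 4 higher and 4 lower, and the matching counts over all genes tested were not made. At an adjusted p under 0.05 edgeR called 1 lower and DESeq2 2 lower, against 890 and 1013 of all genes tested. With the replicate block 5 were called higher and 5 lower. Over all genes tested the block called 1155 higher and 1159 lower. The median change was 0.05 and the SD of the changes over genes 0.33, against -0.01 and 0.86 over all genes tested. MRPL50 (bL9m), a large-subunit protein, stood at 381, 412 and 416 at 30 min and 478, 641 and 650.4 at 240 min, without overlap (log2 0.54 ± 0.18, adjusted p = 0.0407). This call was lost without 240 min replicate 2, 240 min replicate 3, 30 min replicate 1, 30 min replicate 2 or 30 min replicate 3 (log2 0.46 to 0.56, adjusted p = 0.0947 to 0.153). With equal library totals it was lost too (log2 0.09, adjusted p = 0.722). Over the same interval 116 of the 132 cytosolic ribosomal protein genes rose, with a median log2 change of 2.09. Scaled to equal library totals, the members' median was -0.40, with all genes at -0.46, and 15 members were called lower, so the direction of the set depends on the scaling. Of all genes tested 1935 were called lower with that scaling.

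The step from 240 min to log phase also gave 1 call, the fall of MRP20, and no rise (1.54% and 0% of the members, where 4.09% and 3.27% of all genes tested were called lower and higher). At an unadjusted p under 0.05 limma gave 12 higher and 3 lower, and the matching counts over all genes tested were not made. EdgeR called 2 higher, DESeq2 7 higher and the replicate block 11 higher, against 281, 503 and 544 of all genes tested. Without log-phase replicate 1, 20 were called higher and 10 lower, against 1108 and 968 of all genes tested. MRP20 (uL23m), counterpart of a bacterial protein at the exit of the polypeptide tunnel, stood at 283, 274 and 294 at 240 min and 148, 172 and 108 in log phase, without overlap (log2 -1.01 ± 0.21, adjusted p = 0.0194). Its call was lost without 240 min replicate 2, 240 min replicate 3 or log-phase replicate 3 (log2 -1.03 to -0.83, adjusted p = 0.077 to 0.104). It was also lost in a fit of only the groups compared (log2 -1.01, adjusted p = 0.138). With log-phase replicate 1 alone the change was log2 -0.93. The members' median change was 0.14, against -0.01 over all genes tested, and it was -0.13 with equal library totals, where all genes were at -0.28.

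Compared with quiescent cells, 16 genes were higher and 8 lower at 240 min (24.6% and 12.3%), where 29.1% and 29.5% of all genes tested were called. With the replicate block 26 were called higher, against 2010 of all genes tested. In the large subunit 10 rose and 3 fell, and in the small subunit 6 rose and 5 fell. The median change was 0.21, against 0.01 over all genes tested. MRPL32, MRPL15, MRPL3, MRPL25 and MRPL17 of the large subunit, whose values are given above, rose most (log2 1.42 ± 0.26, 1.40 ± 0.26, 1.32 ± 0.30, 1.29 ± 0.19 and 1.08 ± 0.29). Their adjusted p-values from limma were 0.000496, 0.000653, 0.00256, 9.16e-05 and 0.00678. MRPS9 rose as well (log2 1.00 ± 0.15, adjusted p = 0.000107). The falls of RSM7, MRPL28, RSM10 and MRPS12 were log2 -2.03 ± 0.32, -1.99 ± 0.41, -1.76 ± 0.28 and -1.19 ± 0.28, with adjusted p = 0.000189, 0.00116, 0.000192 and 0.00279. All of these calls held under every alternative run for this comparison.

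The rises of RSM22 (log2 0.88 ± 0.17, adjusted p = 0.000907), MRPS28 (log2 0.91 ± 0.24, adjusted p = 0.00529) and MRPL23 (log2 0.61 ± 0.18, adjusted p = 0.01) also held under each of these alternatives. MRPL23 (uL13m) went from 439 ± 24.5 to 672 ± 70.7 (SD, n = 3). These 3 were chosen after their values were seen. Other calls at 240 min were lost under some. MRPS8 (uS8m), an RNA-binding protein of the small subunit, stood at 153, 273 and 296 in quiescent cells, 353, 339.8 and 384 at 30 min, 370.4, 546 and 499.8 at 240 min, and 446, 1013 and 1071 in log phase, and its quiescent libraries lay below all others (log2 1.01 ± 0.34, adjusted p = 0.0221). MRPL7 (uL5m), of the central protuberance of the large subunit, stood at 272, 513 and 480.1 in quiescent cells, 465, 572 and 612 at 30 min, 604, 841 and 888 at 240 min, and 691, 1272 and 1492 in log phase, with the 240 min libraries above the quiescent ones (log2 0.92 ± 0.32, adjusted p = 0.0249). These calls were lost without 240 min replicate 2, 240 min replicate 3 or quiescent replicate 1 (log2 0.71 to 0.96, adjusted p = 0.0643 to 0.0996 for MRPS8). For MRPL7 the same libraries gave log2 0.63 to 0.85 and adjusted p = 0.074 to 0.111. With equal library totals MRPL7 was not called either (log2 0.72, adjusted p = 0.0607).

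RSM18 (bS18m) stood at 642, 1458 and 1454 in quiescent cells, 811, 789.7 and 818 at 30 min, 597, 659.7 and 639 at 240 min, and 650.1, 852 and 913 in log phase, and quiescent replicate 1 fell within the range of the later groups (log2 -0.81 ± 0.28, adjusted p = 0.0255). MRP49 (mL61) stood at 481, 367 and 436 in quiescent cells, 439, 358 and 323 at 30 min, 329, 229 and 189 at 240 min, and 281, 129 and 125 in log phase, with the 240 min libraries below the quiescent ones (log2 -0.81 ± 0.31, adjusted p = 0.0408). RSM19, the neighbour of MRPS12, stood at 342, 409.7 and 392 in quiescent cells, 263, 287 and 268 at 30 min, 153, 299 and 268 at 240 min, and 242, 417 and 315 in log phase and fell from quiescence to 240 min (log2 -0.72 ± 0.27, adjusted p = 0.0349). MRPL36 (bL31m), a protein between the subunits in bacteria, stood at 1227, 1159 and 1119 in quiescent cells, 1003, 974 and 983 at 30 min, 848, 868 and 957 at 240 min, and 939, 924 and 842 in log phase, a small fall by 240 min (log2 -0.39 ± 0.15, adjusted p = 0.0421). Each of these 4 calls was lost on leaving out single libraries. For RSM18 this was so without 240 min replicate 1, 240 min replicate 2, 240 min replicate 3, quiescent replicate 2 or quiescent replicate 3 (log2 -0.84 to -0.61, adjusted p = 0.0522 to 0.113). The RSM18 call was also lost in a fit of only the groups compared (adjusted p = 0.0534). For MRP49 leaving out 240 min replicate 2, 240 min replicate 3, quiescent replicate 1, quiescent replicate 2 or quiescent replicate 3 lost it (log2 -0.92 to -0.63, adjusted p = 0.0504 to 0.152). EdgeR did not call MRP49 either (log2 -0.78, adjusted p = 0.0568). For RSM19 the call was lost without 240 min replicate 1, quiescent replicate 2 or quiescent replicate 3 (log2 -0.69 to -0.42, adjusted p = 0.0849 to 0.148). MRPL36 missed the threshold without any 1 of the 6 libraries (log2 -0.44 to -0.36, adjusted p = 0.0654 to 0.116).

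Most calls came between quiescence and log phase, with 23 genes higher and 9 lower (35.4% and 13.8%), where 28.8% and 27.8% of all genes tested were called. With the replicate block 32 were called higher and 12 lower, which included every member called without the block. Over all genes tested the block called 2024 higher and 1895 lower. With log-phase replicate 1 alone the changes of some members differed, as for MRPL13 (log2 1.64, against 0.11 with all libraries) and RSM24 (log2 -0.10, against -0.88). In the large subunit 14 rose and 4 fell, and in the small subunit 9 rose and 5 fell. The median change was 0.39, against 0.05 over all genes tested. With equal library totals it was -0.08 against -0.42, with 12 higher and 17 lower, so that the set stayed above the median gene but changed sign. Of all genes tested that scaling called 978 higher and 2381 lower. MRPL32 rose most (log2 2.17 ± 0.26, adjusted p = 2.08e-05), followed by MRPL15 (log2 2.03 ± 0.26, adjusted p = 4.26e-05). With log-phase replicate 1 alone both remained called (log2 1.66, adjusted p = 0.000897 and log2 1.42, adjusted p = 0.00129), as did MRPS9 (log2 1.28 ± 0.15, adjusted p = 1.65e-05 with all libraries, and log2 1.28, adjusted p = 0.000219 with replicate 1 alone).

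Several of the larger rises were carried by log-phase replicates 2 and 3. MRPL20 (mL58) stood at 216, 381 and 364 in quiescent cells, 387, 379.5 and 421 at 30 min, 357, 652 and 624 at 240 min, and 465, 1581 and 1602 in log phase. Replicates 2 and 3 of log phase were far above all other libraries and replicate 1 was within the 240 min range (log2 1.76 ± 0.43, adjusted p = 0.00383, and log2 0.58, adjusted p = 0.23 with replicate 1 alone). RSM26 (mS42), a small-subunit protein with a superoxide dismutase fold, stood at 363, 582 and 584 in quiescent cells, 482, 593 and 624 at 30 min, 647, 883 and 907 at 240 min, and 619, 1659 and 1839 in log phase. Replicates 2 and 3 of log phase were again the highest libraries and replicate 1 was below the 240 min range (log2 1.31 ± 0.36, adjusted p = 0.00827, and log2 0.31 with replicate 1 alone). With equal library totals RSM26 was not called (log2 0.84, adjusted p = 0.0505). MRPL7 rose from quiescence to log phase (log2 1.43 ± 0.32, adjusted p = 0.00209) but missed the threshold with replicate 1 alone (log2 0.76, adjusted p = 0.1). MRPS8 was called either way (log2 1.76 ± 0.34, adjusted p = 0.000799, and log2 0.94, adjusted p = 0.0463 with replicate 1 alone). MRP4 (uS2m), which overlaps YHL005C on the opposite strand, stood at 299.9, 274 and 243 in quiescent cells, 444, 241 and 299 at 30 min, 582, 464 and 432 at 240 min, and 823, 577 and 584 in log phase, and here log-phase replicate 1 was the highest library (log2 1.26 ± 0.25, adjusted p = 0.000882, and log2 1.60, adjusted p = 0.00217 with replicate 1 alone).

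Among the falls to log phase, MRPL28 and RSM10 were lower again (log2 -1.93 ± 0.41 and -1.18 ± 0.28, adjusted p = 0.00153 and 0.00325). RSM7 was log2 -1.09 ± 0.32 (adjusted p = 0.0122), with log2 -2.30 within replicate 1 and -0.48 within replicates 2 and 3. It was not called in a fit of those groups alone (log2 -1.09, adjusted p = 0.0594). MRP49 fell (log2 -1.36 ± 0.31, adjusted p = 0.00272), and MRP20 fell (log2 -1.19 ± 0.21, adjusted p = 0.000471) to log-phase values of 148, 172 and 108 from quiescent values of 377, 290.1 and 303. With replicate 1 alone RSM10, RSM7 and MRP20 remained called (log2 -1.58, adjusted p = 0.00449, log2 -2.03, adjusted p = 6.24e-05 and log2 -1.11, adjusted p = 0.00328), while MRPL28 and MRP49 were not called (log2 -1.06, adjusted p = 0.0861 and log2 -0.60, adjusted p = 0.137).

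RSM24 (mS35) stood at 711, 704 and 839 in quiescent cells, 633, 701 and 712 at 30 min, 703, 635 and 674 at 240 min, and 699, 319 and 301 in log phase, and log-phase replicates 2 and 3 were the libraries below the other libraries (log2 -0.88 ± 0.27, adjusted p = 0.0155). It was not called without log-phase replicate 2, log-phase replicate 3 or quiescent replicate 3 (log2 -0.80 to -0.66, adjusted p = 0.0557 to 0.0697). Nor was it called in a fit of only the groups compared (log2 -0.88, adjusted p = 0.0678). With replicate 1 alone the change was log2 -0.10. MRPS5 (uS5m), counterpart of a bacterial protein at the entry of the mRNA channel, stood at 886, 872 and 907 in quiescent cells, 545, 705 and 748 at 30 min, 472, 707 and 768 at 240 min, and 604, 441 and 473 in log phase, below the quiescent libraries in each log-phase library (log2 -0.82 ± 0.22, adjusted p = 0.007, and log2 -0.56, adjusted p = 0.128 with replicate 1 alone). MRPL4 (uL29m), near the tunnel exit in bacteria, stood at 174, 153 and 114 in quiescent cells, 145, 140.0 and 144 at 30 min, 114, 150.5 and 138 at 240 min, and 70.4, 114 and 70.3 in log phase, with log-phase replicate 2 close to the lowest quiescent value (log2 -0.80 ± 0.25, adjusted p = 0.0148). Its call was lost without log-phase replicate 3 or quiescent replicate 1 (log2 -0.69 to -0.67, adjusted p = 0.0508 to 0.0555). It was also lost in a fit of only the groups compared (log2 -0.80, adjusted p = 0.0686). With replicate 1 alone the change was log2 -1.03.

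Over the 5 comparisons, which share libraries, 27 of the 65 genes were called in none and 38 in at least 1. Of these 38, 25 were called higher and 13 lower, and no gene was called in both directions. Of the 27, 13 were called in at least 1 comparison with the replicate block. The matching counts over all genes tested were not made. In each single comparison of the main fit, fewer members than genes tested were called in either direction, as a share. Against Q the shares were 21.5% of members and 44.4% of all genes tested for E30. They were 36.9% and 58.6% for E240, and 49.2% and 56.7% for LOG. E240 against E30 gave 1.54% and 27.3%, and LOG against E240 gave 1.54% and 7.36%. Alternatives did not all keep this order. With the replicate block 32 of the 65 members were called higher and 12 lower in LOG against Q. Over the 5871 genes tested these counts were 2024 and 1895. The order was also reversed for LOG against E240 without the replicate 1 libraries, with counts given below.

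Replicate 1 differed from replicates 2 and 3 in every group, and the labels do not say what a replicate number marks. In log phase 29 of the 65 genes (44.6%) differed by more than 2-fold between replicate 1 and the mean of the other two, against 28.1% of the other genes tested. In the other groups the members' share was below that of the other genes, at 4.62% against 9.80% in quiescent cells, 3.08% against 6.46% at 30 min and 6.15% against 7.34% at 240 min. MRPL13 (mL50) stood at 299.9, 198 and 186 in quiescent cells, 538, 419.9 and 343 at 30 min, 556, 302 and 348 at 240 min, and 698, 147 and 135 in log phase, with replicate 1 the highest in each group and not called in any comparison. With log-phase replicate 1 alone the change from quiescence was log2 1.64, while log-phase replicates 2 and 3 lay below every quiescent library. With all libraries it was log2 0.11, and limma with the replicate block gave adjusted p = 0.777. Its log2 difference between replicate 1 and the mean of the others was 0.78 at 240 min and 2.30 in log phase. For MRPL20 these differences were -0.84 and -1.77. MRP10 (mS37), a cysteine-rich protein of the small subunit, stood at 279, 246 and 187 in quiescent cells, 593, 373 and 350.3 at 30 min, 462, 248 and 274 at 240 min, and 451, 116 and 124 in log phase, with differences of 0.82 and 1.90.

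Across the 65 genes the differences at 240 min and in log phase correlated at r = 0.85 (Spearman's rho 0.87), against r = 0.40 (rho 0.45) across the 5806 other genes tested. This was the highest of the 6 pairs of groups and the widest gap. Over the other 5 pairs r was 0.61 to 0.82 across the members and 0.31 to 0.57 across the other genes. For quiescence and 30 min, the pair with the narrowest gap, it was 0.65 against 0.53. These correlations describe genes of the same libraries, which share the replicate number, and genes are not independent replicates. The median change of the members from quiescence to 30 min was 0.54 within replicate 1 and 0.12 within replicates 2 and 3. From quiescence to 240 min it was 0.36 and 0.17, and from quiescence to log phase 0.64 and 0.32. From 30 to 240 min the medians were -0.06 and 0.07, and from 240 min to log phase 0.19 and 0.09. Over the 5 comparisons the replicate block lost 0 of the 72 member calls and gained 55, and leaving out the replicate 1 libraries lost 0 and gained 140. Calls over all genes tested rose too. At 30 min against quiescence they went from 1211 higher and 1394 lower to 1550 and 1799 with the block. Without replicate 1 they were 1933 and 2261.

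**Figure D5:**
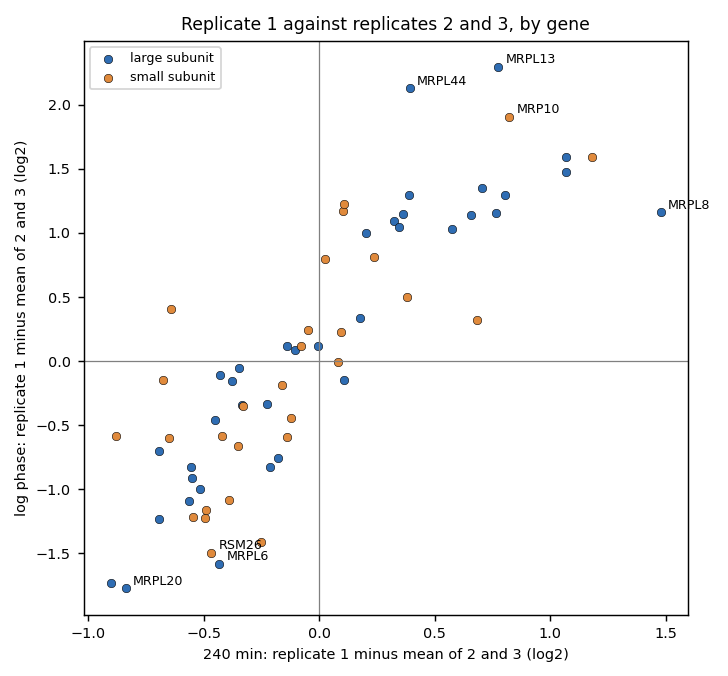
Log2 difference between replicate 1 and the mean of replicates 2 and 3 for each gene at 240 min (horizontal) and in log phase (vertical), with large-subunit genes in blue and small-subunit genes in orange. Genes higher in replicate 1 at 240 min are mostly higher in it in log phase too, with MRPL13 at the top right and MRPL20 at the bottom left.

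Other genes of mitochondrial translation also moved in both directions. Their counts stand against 20.6% higher and 23.7% lower over all genes tested at 30 min, and 28.8% and 27.8% from quiescence to log phase. Of the 14 further mitochondrial ribosome proteins 1 rose and 2 fell by 30 min (7.14% and 14.3%), and 5 rose and 3 fell from quiescence to log phase (35.7% and 21.4%), where log-phase replicate 1 alone gave 5 and 2. MNP1 (bL12m), of the stalk that recruits translation factors, rose from 497 ± 124 in quiescent cells to 2015 ± 809 in log phase (SD, n = 3; log2 1.95 ± 0.32, adjusted p = 0.000267). Its log-phase values were 1086, 2567 and 2391, and with replicate 1 alone it was still called (log2 1.16, adjusted p = 0.0135). PET123 (mS26) was higher by 30 min (log2 0.93 ± 0.17, adjusted p = 0.0011) and MHR1 (mL67) lower (log2 -0.86 ± 0.15, adjusted p = 0.000912). MRX14, the gene that converges on MRPL1, fell (log2 -0.85 ± 0.29, adjusted p = 0.0297). VAR1, the mitochondrially encoded protein, was below the filter. It stood at 41.8, 19.0 and 25.5 in quiescent cells, 14.3, 4.87 and 2.22 at 30 min, and 2.09, 1.63 and 0.746 at 240 min, and no read was assigned to it in log phase. These values rest on few reads, with 1 read worth 6.97 in quiescent replicate 1 and 0.746 in 240 min replicate 3. The libraries were of polyadenylated RNA, and whether they measure a mitochondrially encoded mRNA was not tested.

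Among 11 translation factors 4 rose and 3 fell from quiescence to log phase (36.4% and 27.3%), and 4 and 1 with log-phase replicate 1 alone. MEF1, the mitochondrial elongation factor G, rose from 294 ± 37.8 to 1649 ± 684 (log2 2.39 ± 0.31, adjusted p = 4.12e-05), and TUF1, the elongation factor Tu, from 1186 ± 112 to 2900.1 ± 302 (log2 1.29 ± 0.17, adjusted p = 4.36e-05). MEF2, a factor in ribosome recycling, fell from 1243 ± 169.8 to 384 ± 51.4 (log2 -1.69 ± 0.19, adjusted p = 1.47e-05). The log-phase values of MEF1 were 861, 1998 and 2087. With replicate 1 alone MEF1, TUF1 and MEF2 were still called (log2 1.56, adjusted p = 0.000902, log2 1.36, adjusted p = 0.000258 and log2 -1.92, adjusted p = 0.000102). Among 13 assembly factors 3 rose and 6 fell over the same comparison (23.1% and 46.2%), and 4 and 3 with replicate 1 alone. The RNA helicase gene MSS116 rose by 30 min (log2 1.57 ± 0.24, adjusted p = 0.000315), as did MRH4, a helicase in large-subunit assembly (log2 1.71 ± 0.24, adjusted p = 0.000183). MRM2, a methyltransferase of the large ribosomal RNA, fell (log2 -0.62 ± 0.16, adjusted p = 0.00842). Of 13 tRNA synthetases 4 rose and 2 fell from quiescence to log phase (30.8% and 15.4%), and 3 and 0 with replicate 1 alone. MST1 rose most (log2 1.20 ± 0.30, adjusted p = 0.00451, and log2 1.69, adjusted p = 0.00307 with replicate 1 alone).

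Of 15 translational activators 4 rose and 2 fell by 30 min (26.7% and 13.3%). AEP3, which acts on the mRNA for ATP synthase subunits, went from 345 ± 40.5 in quiescent cells to 1337 ± 219.8 at 30 min and 250.3 ± 30.5 at 240 min, a rise (log2 1.94 ± 0.19, adjusted p = 2.66e-05) and then a fall (log2 -2.41 ± 0.19, adjusted p = 3.46e-05). PET122, an activator of COX3 translation, fell by 30 min (log2 -2.06 ± 0.49, adjusted p = 0.00478). Of the 4 membrane insertion genes, OXA1, the insertase, fell by 30 min (log2 -1.17 ± 0.20, adjusted p = 0.000653) and was lowest in log phase (log2 -1.81 ± 0.20, adjusted p = 1.23e-05 against quiescence, and log2 -1.74, adjusted p = 0.000334 with log-phase replicate 1 alone). MBA1, a ribosome receptor of the inner membrane, rose by 30 min (log2 1.28 ± 0.28, adjusted p = 0.00317). The pairs MEF1 and MEF2, and MBA1 and OXA1, thus moved in opposite directions at the same time.

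The mRNA for Puf3 itself stood at 272, 479.7 and 473 in quiescent cells, 260.1, 572 and 586 at 30 min, 300.1, 323 and 357 at 240 min, and 145, 219 and 177 in log phase. It was lower in log phase than in quiescence (log2 -1.15 ± 0.33, adjusted p = 0.00951, and log2 -1.44, adjusted p = 0.0225 with log-phase replicate 1 alone), and no other comparison of it passed the test. HAP4, the activating subunit of the Hap complex that controls respiratory genes, stood at 955, 961 and 933 in quiescent cells, 2660.2, 1500.0 and 1598 at 30 min, 2749, 1374 and 1497 at 240 min, and 1898, 5699 and 5851 in log phase. Its rise to log phase (log2 2.07 ± 0.41, adjusted p = 0.00102) was carried by replicates 2 and 3, with log2 0.99 within replicate 1 and 2.61 within the others. With replicate 1 alone it was not called (log2 1.00, adjusted p = 0.0579). SFP1, a regulator of cytosolic ribosomal protein genes, rose by 30 min (log2 0.92 ± 0.16, adjusted p = 0.000848).

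Promoters, taken as the 250 bases before the start codon and the first 50 after it, held 4 motifs, searched on both strands, at shares at or below those of all genes. GATGAG, the PAC motif of ribosome biogenesis genes, was in 11 of 65 (16.9%), against 20.4% of 6001 genes. AAAATTTT, the core of the RRPE motif, was in 4 of 65 (6.15%) against 9.03%. CCAAT, the Hap complex motif, was in 27 of 65 (41.5%) against 43.3%, and AGGGG, the stress response element, in 10 of 65 (15.4%) against 21.6%. None of these motifs lies within another. The promoters of RSM10, which fell, and MRPL32, which rose, are given with matches in capitals.
RSM10: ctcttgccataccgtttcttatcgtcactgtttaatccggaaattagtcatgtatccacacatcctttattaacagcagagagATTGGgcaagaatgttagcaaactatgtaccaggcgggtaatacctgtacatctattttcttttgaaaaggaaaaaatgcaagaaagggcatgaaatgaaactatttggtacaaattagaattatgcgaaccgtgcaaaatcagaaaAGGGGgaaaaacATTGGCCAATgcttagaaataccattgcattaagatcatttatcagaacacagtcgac
MRPL32: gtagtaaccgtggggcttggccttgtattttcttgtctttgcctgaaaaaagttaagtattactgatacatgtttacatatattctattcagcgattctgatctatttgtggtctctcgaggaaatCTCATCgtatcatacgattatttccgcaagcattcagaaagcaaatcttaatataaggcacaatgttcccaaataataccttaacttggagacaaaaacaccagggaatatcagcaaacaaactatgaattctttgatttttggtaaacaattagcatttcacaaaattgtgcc
The RSM10 window (chrIV:539553-539852, plus strand) held 3 matches to CCAAT or its complement and 1 to AGGGG. That of MRPL32 (chrIII:118370-118669, plus strand) held 1 match to GATGAG on the other strand. A match is a description of letters and not a site of action.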

How the data were processed

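Poly(A) RNA was read from 12 libraries, 3 in each of 4 groups named by the labels. The deposited table holds 1 signal per gene and library, a normalised read count made by the authors. The submitters' processing notes name the sacCer3 build, bedtools, HTSeq 0.6.1, DESeq2, DESeq and STAR 2.5.2a. The strand setting of the counting was not stated. Divided by what 1 read is worth in its library, each value (100.0%) came out whole within a tolerance of 1e-06, which gave back the reads. The authors' normalised values were tested with limma 3.58.1 (R 4.3.3, intensity trend, two-sided) on log2(value + 1). A minimum mean of 10 left 5871 genes. All 4 groups were in 1 fit with 8 residual degrees of freedom and Benjamini-Hochberg adjustment over all genes tested. The pseudocount of 1 understates the change of low genes. EdgeR 4.0.16 (quasi-likelihood) on the recovered reads called 1175 genes higher and 1438 lower at 30 min against quiescence, and DESeq2 1.42.0 called 1279 and 1576. The fits were checked on simulated data.

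The 65 genes and all lists were chosen with earlier results of these data known. In each comparison the 8 largest rises and 8 largest falls among called members were named, with the 3 highest and 3 lowest per kb of coding length, up to 4 called genes of each other list, and PUF3, HAP4 and SFP1. Subunits and protein names were set by hand and matched the RefSeq synonyms. Of the 6120 genes, 6032 were found in the R64 reference (the sacCer3 sequence), all members among them. Sequences are from RefSeq R64. No 2 libraries of a group agreed within sampling noise. Replicate numbers come from the labels. Deviations from group means correlated between same-numbered libraries in all 18 pairs (r = 0.134 to 0.582 across genes). The replicate number was fitted as a block. Replicates 2 and 3 of different groups also correlated (0.210 to 0.553), against 0.134 to 0.394 between libraries numbered 2. Replicate 1 correlated negatively with both (-0.604 to -0.197). These values set replicate 1 apart and do not show that libraries were paired by number. Alternatives were another pseudocount, other filters, TMM scaling, equal library totals, edgeR, DESeq2, only the groups compared, the block, and leaving out libraries.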

Additional observations from a re-analysis of the deposited data

How the results depend on the processing

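Counts of members called changed with the setting, and with equal library totals the direction of the set did too. No named gene changed sign where it was called in either fit, though most were named for being the largest called changes. Sign changes of genes called in neither fit were not counted. With the replicate number as a block, counts were 19 higher and 7 lower at 30 min against quiescence and 5 and 5 for 240 against 30 min. They were 11 higher for log phase against 240 min and 26 higher for 240 min against quiescence. Over all genes tested the block called 1550 and 1799, 1155 and 1159, 544 higher and 2010 higher in these comparisons. No member's call was lost with the block, and 55 were gained. With replicate 1 libraries left out the counts were 24 and 16, 20 and 10, 30 and 19, and 29 and 14 in the same order, and 18 lower for log phase against quiescence. Over all genes tested they were 1933 and 2261, 1777 and 1782, 1872 and 1801, 2318 and 2309, and 2230 lower. With equal library totals the members' counts were 19 and 2 (30 min against quiescence), 0 and 15 (240 against 30 min), 2 lower (log phase against 240 min), 10 higher (240 min against quiescence) and 12 and 17 (log phase against quiescence). Over all genes tested they were 1669 and 976, 328 and 1935, 690 lower, 1375 higher, and 978 and 2381. A fit of only the groups compared gave 17 and 7, 4 and 4, and 0 lower for the successive steps, and 15 and 5 for log phase against quiescence. Over all genes tested it gave 1430 and 1647, 1082 and 1179, 13 lower, and 1339 and 1338. DESeq2 gave 2 and 2 for 240 against 30 min and 7 higher for log phase against 240 min, where edgeR gave 1 lower and 2 higher. Over all genes tested DESeq2 gave 962 and 1013, and 503 higher, where edgeR gave 890 lower and 281 higher. With log-phase replicate 1 alone, chosen after seeing the data, the changes of some members from quiescence to log phase differed, as given above. Leaving out 1 library at a time gave 8 to 10 higher and 3 to 4 lower at 30 min, 0 to 1 and 0 to 1 for 240 against 30 min, and 0 to 20 and 0 to 10 for log phase against 240 min, the highest without log-phase replicate 1. It gave 10 to 16 and 4 to 6 for 240 min and 17 to 27 and 6 to 12 for log phase, each against quiescence. Over all genes tested these fits called 974 to 1081 higher and 1098 to 1238 lower at 30 min. They called 516 to 649 and 495 to 652 for 240 against 30 min, and 19 to 1108 and 29 to 968 for log phase against 240 min. Against quiescence they called 1440 to 1626 and 1494 to 1669 for 240 min, and 1476 to 1862 and 1461 to 1798 for log phase. Of 72 calls over the comparisons, 33 held under every alternative. Of the settings for named genes 2230 left the gene called or uncalled as in the main fit, 192 lost a call and 17 gained one. Depth limited quiescent replicate 1 most, since the median member had 53 reads there.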
